A study of Mus musculus with 6 samples.

Results

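Contactins and L1 family adhesion molecules were read in cells sorted from embryonic mouse dorsal root ganglia. The 10 genes were taken by name: the contactin genes Cntn1 to Cntn6, the contactin-associated protein genes Cntnap1 and Cntnap2, and the L1 family genes L1cam and Nrcam. Each matched 1 identifier among the 41388 genes listed, and all 10 were among the 15026 genes that passed the expression filter. There were 6 libraries, 3 from female and 3 from male C57BL/6 embryos at 18.5 days post coitum, each called by its sex and its letter A, B or C. All 6 were labelled RetFloxedEGFP, an EGFP reporter allele of the receptor gene Ret, and 5 also Scn10a<tm2(cre)Jnw>, which is Cre in the Nav1.8 locus, and cells were taken by fluorescence-activated sorting. Nav1.8 is mainly a nociceptor channel but Cre from its locus is also active in some large-diameter neurons, and whether embryos carried the Ret allele on 1 or both copies is not stated. The genotype label of male C names the reporter alone, although its sample name includes the Cre. Ganglia from 2 embryos were pooled for female A, B and C and for male A, from 3 embryos for male B, and male C came from 1 embryo. Libraries held 15693013 to 24033601 reads assigned to genes and detected 19526 to 21755 genes. No other cell population was sorted in the libraries used here, so levels describe the sorted cells without saying whether other neurons have more or less of these genes.

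Contactins are cell surface proteins built of immunoglobulin and fibronectin domains and tied to the membrane by a lipid anchor, so they act through partners beside them in the same membrane. In myelinated axons contactin 1 pairs with Cntnap1 (Caspr) at the paranode, the seal between axon and myelin next to each node of Ranvier, and contactin 2 pairs with Cntnap2 at the juxtaparanode, where potassium channels gather. L1 and NrCAM cross the membrane and link neighbouring cells to ankyrin and the spectrin skeleton inside, and L1 is known for its part in axon growth and bundling. Nociceptors, the neurons of pain and itch, mostly have thin or unmyelinated axons, and at this stage their axons are growing into skin and spinal cord.

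The stretches before the transcription start of the most and the least abundant members are shown first, because the family spanned a wide range of levels and these 4 genes mark its ends. Each run is the 250 bases upstream of a RefSeq start on GRCm38.p6, written 5′ to 3′ on the strand of the gene, with every CG dinucleotide, the site of DNA methylation, in capitals. Cntn1 is at chr15:92050915-92051164 (plus strand), L1cam at chrX:73880791-73881040 (minus strand), Cntn5 at chr9:10904776-10905025 (minus strand) and Cntn3 at chr6:102464668-102464917 (minus strand).
Cntn1: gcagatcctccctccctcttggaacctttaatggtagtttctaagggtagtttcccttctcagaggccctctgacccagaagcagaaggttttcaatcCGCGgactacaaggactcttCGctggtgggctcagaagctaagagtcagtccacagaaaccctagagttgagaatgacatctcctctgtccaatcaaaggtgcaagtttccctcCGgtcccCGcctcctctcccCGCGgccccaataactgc
L1cam: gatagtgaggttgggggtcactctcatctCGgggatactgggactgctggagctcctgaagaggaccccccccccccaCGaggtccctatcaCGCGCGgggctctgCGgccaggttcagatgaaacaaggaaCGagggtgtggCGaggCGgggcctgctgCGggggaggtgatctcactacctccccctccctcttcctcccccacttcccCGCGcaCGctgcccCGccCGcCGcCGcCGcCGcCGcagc
Cntn5: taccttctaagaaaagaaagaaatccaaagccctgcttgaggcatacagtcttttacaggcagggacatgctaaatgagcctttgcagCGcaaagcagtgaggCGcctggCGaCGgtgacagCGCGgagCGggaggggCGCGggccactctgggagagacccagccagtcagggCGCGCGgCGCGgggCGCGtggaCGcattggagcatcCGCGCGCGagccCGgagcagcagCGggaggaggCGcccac
Cntn3: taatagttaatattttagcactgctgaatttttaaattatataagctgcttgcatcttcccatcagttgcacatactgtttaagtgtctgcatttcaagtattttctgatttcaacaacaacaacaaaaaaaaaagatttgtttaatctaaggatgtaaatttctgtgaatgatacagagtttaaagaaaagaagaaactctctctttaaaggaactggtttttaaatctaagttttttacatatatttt

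The number of CG dinucleotides in these stretches did not run in the order of expression. Cntn1 held 7, L1cam 20, Cntn5 24 and Cntn3 0 in the stretches shown. Among 32851 RefSeq stretches of the same length the median was 6, 46.3% held at least as many as Cntn1, 17.9% at least as many as L1cam and 12.0% at least as many as Cntn5. Over the 9 members with an entry, which leaves out Cntnap1, Nrcam held 25 and Cntn2 10, while Cntn6 held 3. Cntn1, Cntn4, Cntn5, Cntnap2 and L1cam have more than 1 RefSeq start. The other starts held 3 and 3 for Cntn1, 12 for L1cam and 26 for Cntn5, and the starts of Cntn4 held 2 and 12. For Cntnap2 the count was 13 at the first start and 3 at a second start inside the gene. Every start listed for L1cam, Cntn2, Cntn4 and Cntn6 lies inside the deposited gene span, not at its end. Gene-level reads do not say which start was used. The motif GGGCGG was searched on both strands. It occurred in the stretch shown for L1cam and at the other start of L1cam, in the stretch of Nrcam, at the first start of Cntnap2 and at the other start of Cntn5. Of all stretches 32.7% held it.

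Cntn1 and L1cam were the most abundant members, and every member was detected in every library. Levels are given as RPKM, reads per kilobase of the deposited gene length and per unit of library size, with sizes scaled by TMM factors. The mean over 6 libraries spanned 84.8-fold, from Cntn3 at 0.867 RPKM to Cntn1 at 73.5 RPKM. Of the 10 members 7 lay above the median of the genes that passed the filter, which was 3.93 RPKM, and the median of the members was 8.66 RPKM.

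**Figure D1:**
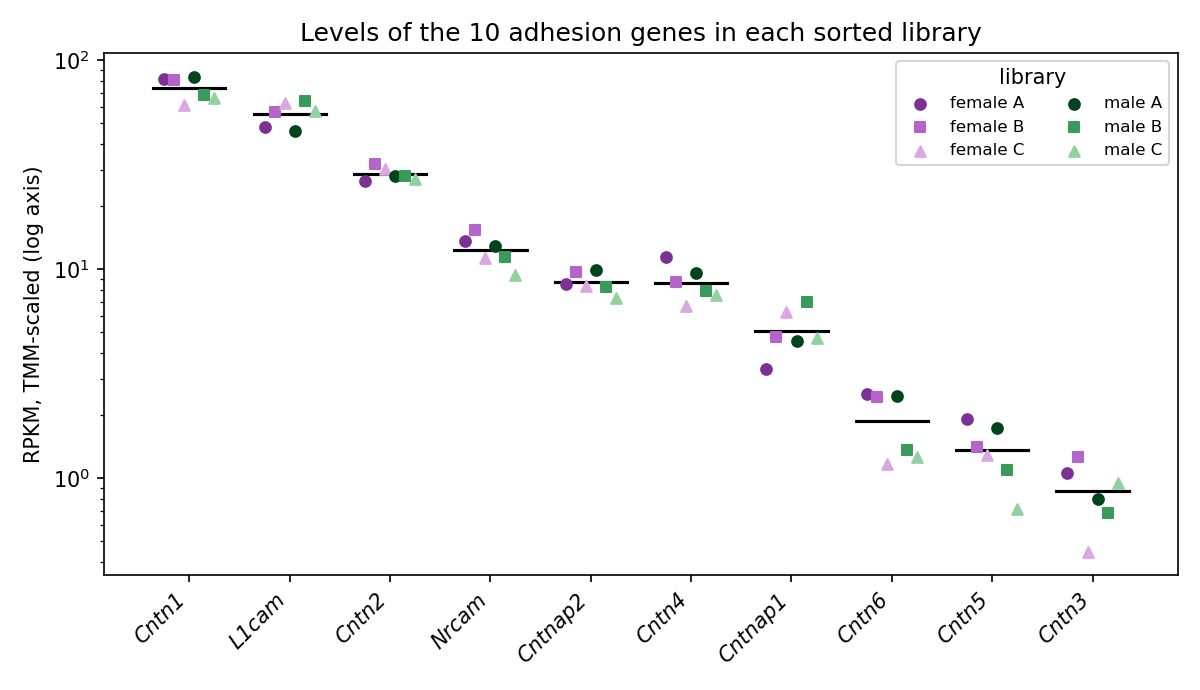
RPKM (TMM-scaled, log axis) of the 10 genes in each of the 6 libraries, ordered by mean; points are libraries, female and male by colour, and the black bar is the mean. Cntn1, at 73.5 RPKM on average, and L1cam, at 55.7 RPKM, lie at the top, and Cntn6, Cntn5 and Cntn3 lie below 3 RPKM in each library.

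Among contactins, Cntn1 held most of the reads per length. Cntn1, which besides its paranodal role is known to bind sodium channel subunits, had 81.7, 80.2 and 61.2 RPKM in female libraries A to C and 83.5, 68.5 and 66.3 RPKM in male libraries A to C (mean 73.5 ± 9.38, SD, n = 6). Female C was lowest and male A highest, and the level lay at percentile 94.1 of the genes that passed the filter. Cntn1 (ENSMUSG00000055022) lies on chromosome 15, 92051165 to 92341967. It made up 63.9 ± 1.94% of the summed RPKM of the 6 contactin genes (SD, n = 6), between 60.5% and 66.2% in single libraries.

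Cntn2 was the steadiest member. Its product, also called TAG-1, is an axonal glycoprotein of growing sensory axons and of the juxtaparanode. Cntn2 (chromosome 1, 132509427 to 132543256) had 26.3, 31.9 and 30.3 RPKM in female libraries A to C and 28.0, 28.0 and 27.1 RPKM in male libraries A to C (mean 28.6 ± 2.12, SD, n = 6). Its SD on the scale of log2(RPKM + 0.1) was 0.10, and 3.3% of the genes that passed the filter had a smaller one. It held 25.1 ± 3.19% of the contactin sum (SD, n = 6).

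The other contactins lay lower, and 3 of them lie in 1 stretch of chromosome 6. Cntn4, known as an axon guidance molecule of the olfactory system, had 11.5, 8.67 and 6.69 RPKM in female libraries A to C and 9.64, 7.84 and 7.51 RPKM in male libraries A to C (mean 8.64 ± 1.73, SD, n = 6). Cntn6, a ligand of Notch receptors in culture, had 2.54, 2.44 and 1.18 RPKM in female libraries A to C and 2.48, 1.36 and 1.26 RPKM in male libraries A to C (mean 1.88 ± 0.673, SD, n = 6). Female A, female B and male A stood about level with each other for Cntn6, and the remaining libraries lay well below them.

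Cntn5 and Cntn3 were the lowest members. Cntn5 (chromosome 9, 9660891 to 10904775), which sensory axon terminals of proprioceptors use together with Cntnap4, had 1.93, 1.42 and 1.30 RPKM in female libraries A to C and 1.74, 1.10 and 0.713 RPKM in male libraries A to C (mean 1.37 ± 0.441, SD, n = 6). Male C was lowest, on 48 reads, and its exact Poisson interval on the RPKM scale (0.526 to 0.946) overlapped that of male B (0.908 to 1.31 RPKM, on 119 reads). Cntn3 had 1.06, 1.27 and 0.446 RPKM in female libraries A to C and 0.794, 0.685 and 0.948 RPKM in male libraries A to C (mean 0.867 ± 0.291, SD, n = 6). The intervals of female C (0.336 to 0.580 RPKM, on 55 reads) and female B (1.08 to 1.48 RPKM, on 161 reads) did not overlap. Such 95% intervals hold counting error alone.

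On chromosome 6, Cntn3 (102163306 to 102464667), Chl1, Cntn6 (104492790 to 104863406) and Cntn4 (105677660 to 106699310) follow each other, with gaps of 1046, 759.8 and 814.3 kb, and their levels differed widely. Between Cntn3 and Cntn4 lie 9 listed genes, of which 3 passed the filter, Chl1, Cntn6 and Gm15631. Gm15631, between Cntn6 and Cntn4, averaged 5.48 RPKM. Chl1, the L1 family gene that lies between Cntn3 and Cntn6, averaged 50.8 ± 13.6 RPKM, against 0.867 ± 0.291 RPKM for Cntn3 and 1.88 ± 0.673 RPKM for Cntn6 (SD, n = 6). Cntnap2 lies on the same chromosome but far from the group, at 45060061 to 47301369, and spans 2241 kb.

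The contactin-associated genes stood below their contactin partners. Cntnap2 had 8.50, 9.73 and 8.37 RPKM in female libraries A to C and 9.92, 8.28 and 7.30 RPKM in male libraries A to C (mean 8.68 ± 0.983, SD, n = 6). Cntnap1 (chromosome 11, 101170523 to 101190724) had 3.35, 4.75 and 6.23 RPKM in female libraries A to C and 4.55, 6.99 and 4.69 RPKM in male libraries A to C (mean 5.09 ± 1.30, SD, n = 6). Male B and female C were highest for Cntnap1 and female A lowest. Cntnap1 shares 233 exonic bases, 3.97% of its length, with Plekhh3 on the opposite strand. Reads there cannot be assigned without knowing whether counting used strand, which was not stated, but Plekhh3 had at most 24 reads in a library. L1cam shares 100 bases, 1.36% of its length, with Arhgap4 on the same strand, and Arhgap4 had at most 10 reads.

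The ratio of contactin to its partner differed between the paranodal and the juxtaparanodal pair. Per length, Cntn1 exceeded Cntnap1 by 24.4, 16.9 and 9.82 times in female libraries A to C and by 18.3, 9.80 and 14.1 times in male libraries A to C. Cntn2 exceeded Cntnap2 by 3.10, 3.28 and 3.63 times in female libraries A to C and by 2.82, 3.38 and 3.71 times in male libraries A to C. The ranges of these ratios did not overlap. As log2 ratios they were 3.86 ± 0.51 for Cntn1 over Cntnap1 and 1.71 ± 0.14 for Cntn2 over Cntnap2 (SD, n = 6), so the paranodal ratio was also the more variable one.

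L1cam stood above Nrcam in each library. L1cam (ENSMUSG00000031391, chromosome X, 73853778 to 73896105) had 48.1, 56.4 and 62.2 RPKM in female libraries A to C and 45.9, 64.0 and 57.4 RPKM in male libraries A to C (mean 55.7 ± 7.33, SD, n = 6). Male B and female C were highest and male A and female A lowest, whereas for Cntn1 male A and female A were highest. Nrcam (chromosome 12, 44328885 to 44601846), whose product also gathers at nodes of Ranvier, had 13.6, 15.4 and 11.3 RPKM in female libraries A to C and 12.9, 11.5 and 9.40 RPKM in male libraries A to C (mean 12.3 ± 2.08, SD, n = 6). Male C was lowest for Nrcam and female B highest. L1cam exceeded Nrcam by 3.53 to 6.10 times.

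Most steps of the order Cntn1, L1cam, Cntn2, Nrcam, Cntnap2, Cntn4, Cntnap1, Cntn6, Cntn5, Cntn3 were kept in single libraries. Of the 9 neighbouring pairs 5 stood in this order in 6 of 6 libraries. The closest pair was Cntnap2 and Cntn4, which differed by 0.02 ± 0.25 on the scale of log2(RPKM + 0.1), in this order in 4 of 6 libraries, so they did not differ beyond their spread. Cntn5 and Cntn3 did not either, at a difference of 0.60 ± 0.63, with the order turned in male C. Cntn1 was above L1cam in 5 of 6 libraries (difference 0.40 ± 0.37), and in female C they were nearly equal, at 61.2 RPKM for Cntn1 and 62.2 RPKM for L1cam. Cntn6 was above Cntn5 in 5 of 6 libraries (difference 0.42 ± 0.33), with female C the exception. Steps kept in every library ranged from 0.49 ± 0.14 for Nrcam over Cntnap2 to 1.43 ± 0.82 for Cntnap1 over Cntn6 (SD, n = 6).

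The length behind RPKM bears on this order. The deposited length counts all annotated exons of a gene, and it exceeds the transcript with the longest coding sequence by much for some members, 9433 against 5671 bases for Cntn1. For Cntnap2 it is the shorter one, 7183 against 9827 bases. Per kilobase of that transcript, a choice made after the data were examined, Cntn4 stood above Cntnap2, at a difference of -1.11 for Cntnap2 minus Cntn4 on the log2 scale. The other steps kept their direction.

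Genes of the same families outside these 10 were also read, and 2 of them belonged to the upper group. Cntnap4, a contactin-associated gene whose product works with contactin 5 at sensory terminals, had 65.9, 61.1 and 50.04 RPKM in female libraries A to C and 55.9, 47.0 and 58.4 RPKM in male libraries A to C (mean 56.4 ± 7.00, SD, n = 6). It exceeded Cntnap2 by 5.642 to 8.001 times. The remaining contactin-associated genes lay low: Cntnap5c averaged 3.31 ± 1.04 RPKM, Cntnap3 2.00 ± 0.676 RPKM and Cntnap5b, the lowest, 0.423 ± 0.109 RPKM (SD, n = 6). Cntnap5a and its near copies may share reads, since how reads with several matches were counted was not stated.

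Chl1, the close homologue of L1, had 73.9, 51.6 and 35.7 RPKM in female libraries A to C and 57.1, 41.0 and 45.7 RPKM in male libraries A to C. Female A was highest and female C lowest, and Chl1 stood above L1cam in 2 of 6 libraries, so the mean levels of these genes (50.8 and 55.7 RPKM) did not differ beyond their spread. Nfasc, the neurofascin gene of nodes and paranodes, lay far below at 1.31 ± 0.313 RPKM (SD, n = 6). Nrcam exceeded Nfasc by 6.30 to 12.8 times.

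**Figure D2:**
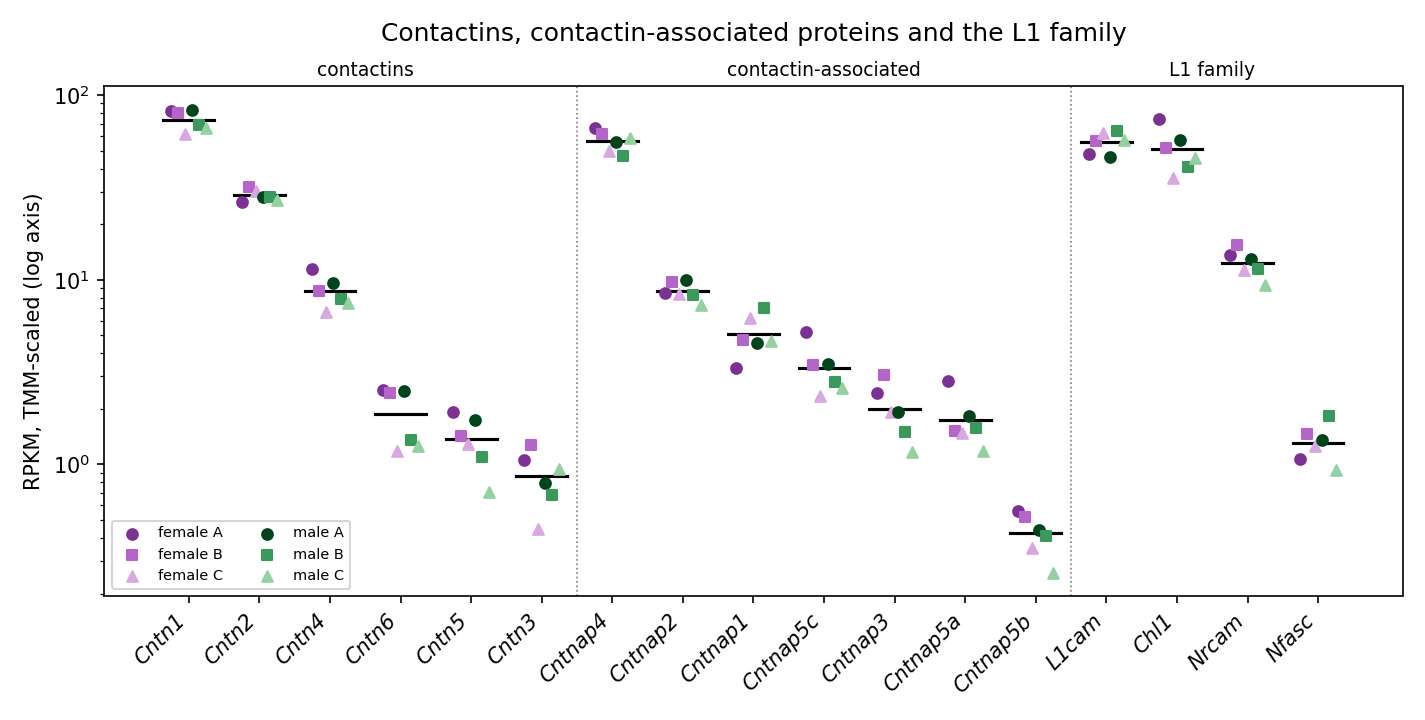
RPKM (TMM-scaled, log axis) of 6 contactin, 7 contactin-associated and 4 L1 family genes in each library; points are libraries and black bars are means. Cntnap4 and Chl1 lie at 56.4 and 50.8 RPKM on average, beside L1cam, while Nfasc lies near 1 RPKM.

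Molecules that contactins and L1 proteins bind were mostly well expressed. Of 14 extracellular partners and ligands, the amyloid precursor family led: Aplp2 averaged 252 ± 9.24 RPKM and App 94.4 ± 12.4 RPKM, followed by the integrin subunit gene Itgb1 at 89.2 ± 11.5 RPKM, and Notch1 was lowest at 0.951 ± 0.218 RPKM (SD, n = 6). Receptor phosphatases that bind contactins lay between these, with Ptprz1 at 9.23 ± 2.26 RPKM and Ptprg, a partner of Cntn3 to Cntn6, at 5.42 ± 0.451 RPKM. Among 17 anchoring and cytoskeletal partners, the spectrin genes Sptbn1 and Sptan1 (94.7 ± 11.0 and 58.8 ± 4.22 RPKM) and the adaptor gene Epb41l3, whose product ties Cntnap proteins to the skeleton (70.7 ± 9.14 RPKM), were highest. The nodal spectrin gene Sptbn4 was lowest, at 0.0476 ± 0.0259 RPKM. Ankyrin genes differed among themselves, with Ank2 at 28.1 ± 2.66, Ank3 at 9.42 ± 1.38 and Ank1 at 0.595 ± 0.154 RPKM (SD, n = 6).

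Genes of the mature node and juxtaparanode were uneven. Of 18 such genes Scn2b (91.4 ± 38.3 RPKM), Scn9a (46.2 ± 12.3 RPKM) and the potassium channel subunit gene Kcnab2 (39.4 ± 9.43 RPKM) were highest. The nodal sodium channel gene Scn8a averaged 2.66 ± 0.607 RPKM, and the juxtaparanodal potassium channel genes Kcna1 and Kcna2 averaged 3.83 ± 1.56 and 0.656 ± 0.162 RPKM (SD, n = 6). Gldn, a glial organiser of nodes, was lowest at 0.0706 ± 0.0408 RPKM and did not pass the filter. Of 6 proteases that shed such surface proteins, Adam10 (38.5 ± 2.99 RPKM) and Bace1 (22.04 ± 1.70 RPKM) were among the highest, and Bace2 was at 0.254 ± 0.102 RPKM. In a list of 20 other immunoglobulin adhesion genes, Igsf3 (133 ± 37.0 RPKM), Ncam1 (80.2 ± 12.3 RPKM) and Cadm1 (50.1 ± 10.3 RPKM) were highest and Sdk2 lowest at 0.379 ± 0.131 RPKM (SD, n = 6).

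The members did not vary together as 1 block across libraries. Cntn1, Cntn4, Cntn5, Cntn6, Cntnap2 and Nrcam, 6 of the 10, had female A, female B and male A as their 3 highest libraries, against 15.8% of the genes that passed the filter. Chl1 and 3 of the 5 other contactin-associated genes (Cntnap3, Cntnap5b and Cntnap5c) had the same 3 libraries highest. Nfasc, Cntnap5a and Cntnap4, the most abundant of the 5, did not, and 2 of the 20 other immunoglobulin adhesion genes did. For Cntnap4 male C (58.4 RPKM) stood above male A (55.9 RPKM). This grouping of libraries was seen in the data and follows no label, so no test is given. Cntnap1 and L1cam had male B and female C as their highest libraries, as did 20.03% of the genes that passed the filter. Over the members the median SD of log2(RPKM + 0.1) was 0.26, and over the genes that passed the filter it was 0.29.

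**Figure D3:**
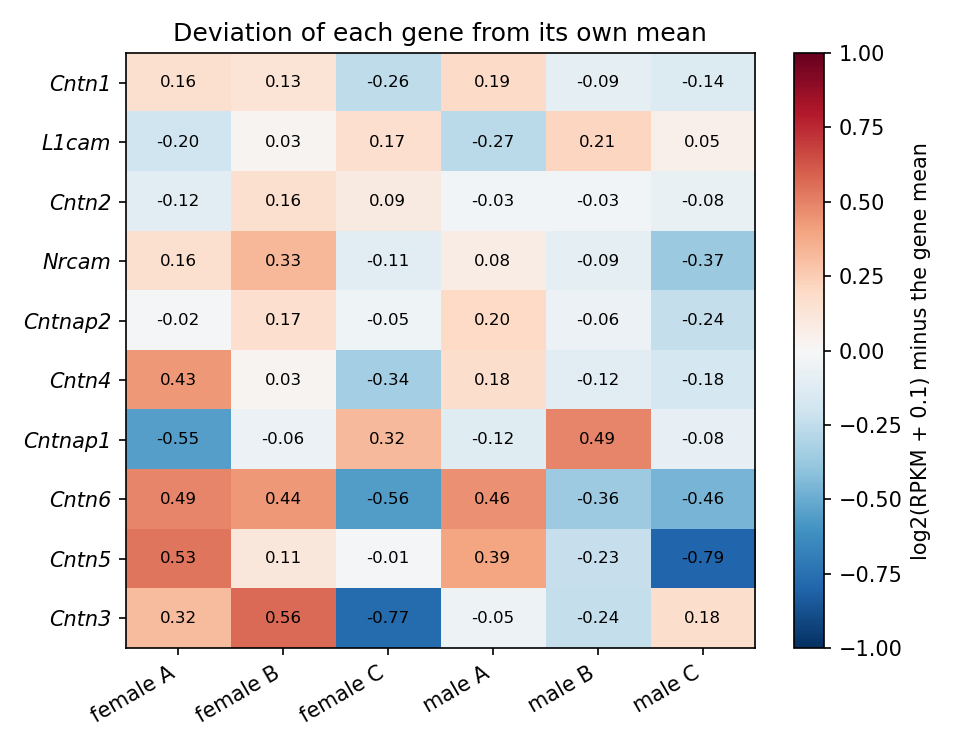
Deviation of log2(RPKM + 0.1) from the mean of each gene, by library, with genes ordered by level; red is above and blue below the mean. Cntn6 reads 0.49, 0.44 and 0.46 in female A, female B and male A and -0.56, -0.36 and -0.46 in female C, male B and male C, while Cntnap1 reads 0.32 and 0.49 in female C and male B.

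Markers of other cells moved across the same libraries. Of 14 satellite glia and Schwann cell markers 7 had female C and male B as their 2 highest libraries, among them Sox10, Mbp, Apoe, Erbb3, Cadm4 and Egr2. Egr2, the regulator of myelination, had 2.80, 1.18 and 6.15 RPKM in female libraries A to C and 1.32, 9.39 and 3.43 RPKM in male libraries A to C. The summed level of the 14 markers ran from 893 to 1017 RPKM in female and from 987 to 1074 RPKM in male libraries, and none was at 0 in every library. The collagen genes Col1a1, Col1a2 and Col3a1, 3 of 7 fibroblast and meningeal markers, also had female C and male B highest. Col1a1 had 13.0 and 22.9 RPKM there and 4.57 to 8.71 RPKM elsewhere. Dcn, the most abundant of the 7, was lowest in male B, at 113 RPKM, and Lum and Pdgfra were lowest in female C. The sum of the 7 was highest in female A. In bulk samples fewer cells of a type and less RNA per cell cannot be told apart, and the part of glial or fibroblast RNA in the levels of Cntnap1 and L1cam was not tested.

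**Figure D4:**
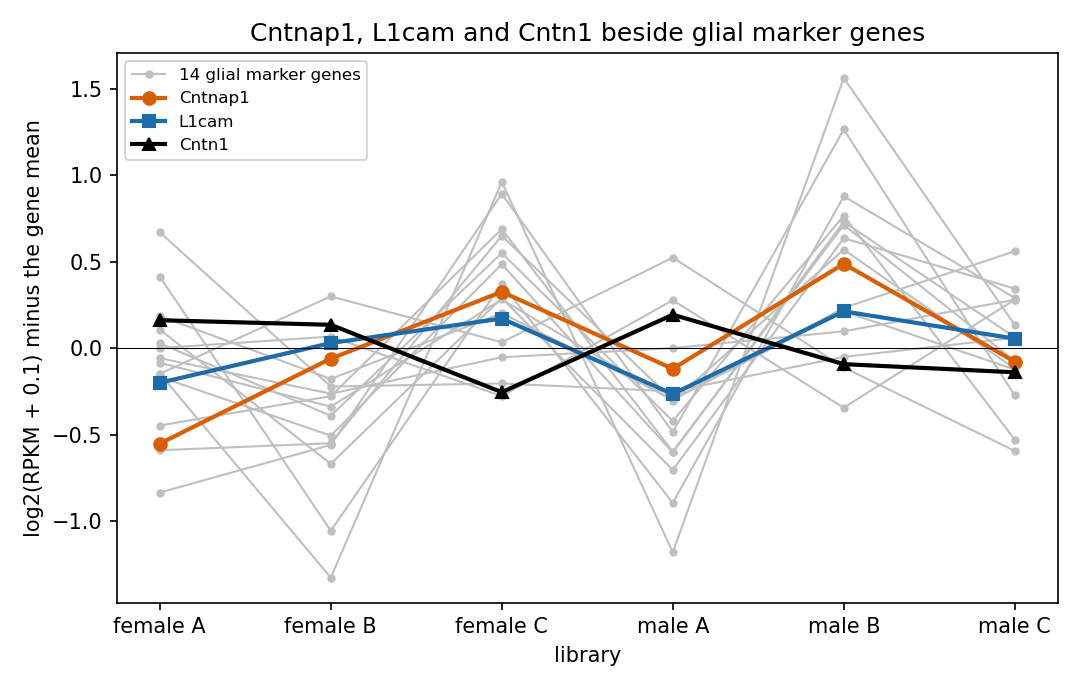
Deviation of log2(RPKM + 0.1) from the mean of each gene in the 6 libraries for Cntnap1, L1cam and Cntn1 and, in grey, 14 glial marker genes. Cntnap1 stands at 0.32 in female C and 0.49 in male B, where 7 of the glial markers have their 2 highest values, and Cntn1 stands at -0.26 and -0.09 there.

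Male C, the library from 1 embryo, was the lowest for Cntn5, Cntnap2 and Nrcam, 3 of the 10 members, against 22.9% of the genes that passed the filter. Of 9 markers of large-diameter neurons 4 were also lowest in male C (Nefh, Pvalb, Ntrk3 and Runx3), while Whrn was highest there, at 0.835 RPKM, and Etv1, the most abundant of the 9, was second highest there, at 38.9 RPKM. Pvalb had 11.3, 11.3 and 4.56 RPKM in female libraries A to C and 9.53, 7.22 and 0.841 RPKM in male libraries A to C. The sum of the 9 markers was 65.6 RPKM in male C, between 70.3 and 84.2 RPKM in the female libraries and 76.2 to 86.9 RPKM in the other male libraries. Of the 18 node and juxtaparanode genes 10 were lowest in male C, among them Kcna1 at 0.946 RPKM, with 3.37 to 5.09 RPKM elsewhere. Scn2b, the most abundant of the 18, was highest in male C, at 167.8 RPKM, with 68.9 to 88.3 RPKM elsewhere. The sum of the 18 was also highest in male C, at 315.3 RPKM, with 227.5 to 252.9 RPKM elsewhere. The part of such neurons in the low values of Cntn5, Cntnap2 and Nrcam was not tested. Without male C the mean was 1.498 RPKM for Cntn5, 8.96 RPKM for Cntnap2 and 12.9 RPKM for Nrcam.

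For the other lists, the 10 nociceptor markers were present in each library, with Scn10a at 119 ± 16.8 RPKM and Ret at 27.8 ± 3.83 RPKM (SD, n = 6), while of 6 spinal cord markers Olig2 and Mnx1 were at 0 reads in each, Chat and Slc6a5 had at most 1 and 2 reads in a library, Gfap had at most 24 reads, and Aldh1l1 had 0.475 to 0.844 RPKM. The summed nociceptor level was 1393 to 1685 RPKM in female and 1700 to 1970 RPKM in male libraries, and Calca alone averaged 974.7 RPKM. These ranges did not overlap, as for 5.70% of single genes tested. Of the 10 markers 1 had a positive fold change, female over male (median -0.18), 1 had an unadjusted p under 0.05 and 0 were called by edgeR, and their part in the comparison of sexes was not tested. Blood and macrophage markers summed to between 28.8 RPKM in male C and 840 RPKM in male A, mostly from the globin genes Hba-a1 and Hbb-bs. The sums were 150 to 175 RPKM for 7 fibroblast and meningeal markers, led by Dcn at 133 ± 13.8 RPKM, and 13.7 to 20.3 RPKM for 8 endothelial and mural markers.

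The genes whose profile over the 6 libraries lay closest to that of a member were found by the root mean square distance of log2 CPM, each centred on its own mean, among 8762 genes of at least 10 CPM. For Cntn1 they included Serf2 (distance 0.02) and Fam102b (0.03), with a median distance of 0.25 over all candidates. For L1cam they were Akap13 and Slc7a14 (both 0.04) and Mrtfa (0.04), against a median of 0.28. Cntn6 was the member of largest SD, 0.54 in log2 CPM, and lay closest to the potassium channel gene Kcnd3 (0.09), Fam126b (0.09) and Xpo1 (0.10), against a median of 0.51. Kcnd3 had 3.96, 4.32 and 2.06 RPKM in female libraries A to C and 3.77, 2.42 and 2.21 RPKM in male libraries A to C, the same separation of female A, female B and male A as for Cntn6. With 6 libraries and 8762 candidates, close profiles occur for any gene.

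No member passed the test between female and male libraries. The question was whether these adhesion genes differ by sex in the sorted cells. By edgeR's quasi-likelihood test with Benjamini-Hochberg adjustment over all 15026 genes, 0 of the 10 members were called, and 5 genes were called in all (0.0333%), with 1 higher in female libraries and 4 higher in male ones. At an unadjusted p under 0.05 there were also 0 of the 10 members and 166 of the 15026 genes tested. At that share 0 of 10 does not set the members apart from other genes. DESeq2 and limma-voom called 0 members. The log2 fold change, female over male, was positive for 8 members and negative for 2, with a median of 0.10 over the members and 0.00 over all genes tested. The adjusted p was 1.00 for each member. The female and male ranges overlapped for each of the 10 members, and 5.70% of all genes tested had ranges that did not overlap.

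The fold changes of largest size were those of Cntn5, Cntn6 and Nrcam. Cntn5 averaged 1.55 ± 0.338 RPKM in female and 1.19 ± 0.522 RPKM in male libraries (SD, n = 3 each), which gives a log2 fold change of 0.38 (standard error 0.34). Cntn6 averaged 2.05 ± 0.762 RPKM in female and 1.70 ± 0.677 RPKM in male libraries, at 0.27 and a standard error of 0.35. Nrcam averaged 13.4 ± 2.05 RPKM in female and 11.3 ± 1.74 RPKM in male libraries, at 0.25 and a standard error of 0.19.

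With 1 library left out the log2 fold change of Cntn5 ran from 0.122 (without male C) to 0.762 (without male A), and that of Cntn6 from 0.085 (without female A) to 0.642 (without male A). Without female C it was 0.545 for Cntn6 and 0.532 for Cntn3, both above the 0.487 of Cntn5, so the order of these genes rests on single libraries.

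For Cntn1 and L1cam, the most abundant members, the difference was smaller. Cntn1 averaged 74.3 ± 11.4 RPKM in female and 72.7 ± 9.37 RPKM in male libraries, which gives a log2 fold change of 0.03 (standard error 0.17). L1cam, on the X chromosome, averaged 55.5 ± 7.11 RPKM in female and 55.8 ± 9.15 RPKM in male libraries, at -0.01 and a standard error of 0.18, and turned to 0.001 with upper-quartile factors and to 0.002 in limma-voom. Cntnap1 averaged 4.78 ± 1.44 RPKM in female and 5.41 ± 1.37 RPKM in male libraries, at -0.18 and a standard error of 0.26. With 3 libraries a sex, a difference of the size of these errors or larger could go unseen. Nrcam, at 0.25 and a standard error of 0.19, was not called. Of the tested genes in the partner and family lists, 0 were called between sexes by edgeR in each list: 0 of 2 other L1 family, 5 other contactin-associated, 20 other immunoglobulin, 14 extracellular, 17 anchoring, 17 node and juxtaparanode and 6 protease genes. The fold change was positive for 5 of the 5 other contactin-associated genes (median 0.34), 12 of the 20 immunoglobulin genes (0.07), 9 of the 14 extracellular (0.07), 11 of the 17 anchoring (0.06), 13 of the 17 node and juxtaparanode (0.15) and 3 of the 6 protease genes (0.05).

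**Figure D5:**
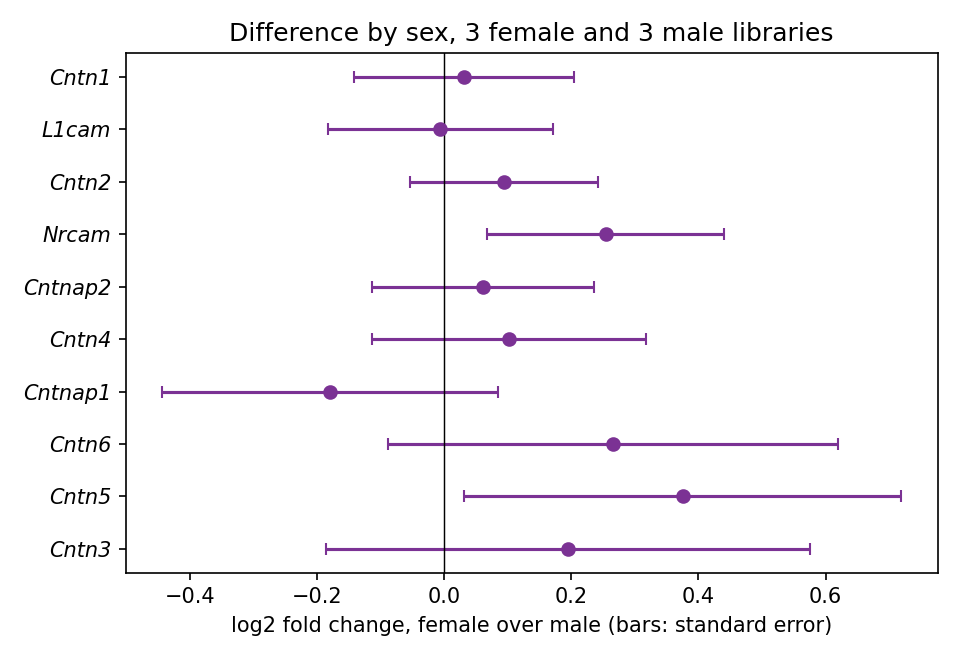
Log2 fold change, female over male, of the 10 genes from edgeR, ordered by level from top to bottom, with 3 libraries per sex. Bars are standard errors derived from the F statistic of the test. With all 6 libraries Cntn5 stands farthest from 0, at 0.38 and a standard error of 0.34, and Cntn1 and L1cam stand at 0.03 and -0.01.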

How the data were processed

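cDNA was made from sorted-cell RNA by SMARTer amplification for low input, per the labels' protocols. Reads per gene were counted with featureCounts 1.4.5 (Subread) on GRCm38.p2, per the submitters' processing notes. Aligner, annotation release, strand use and treatment of multiply matching reads were not stated. The deposited counts are whole reads and sum to between 15693013 and 24033601 per library. The deposited CPM equals the count over that total, and the deposited RPKM is CPM per kilobase of the deposited length. Both were recomputed with TMM library sizes (edgeR 4.0.16, R 4.3.3). Symbols came from GENCODE M21 by Ensembl identifier and matched 97.26% of identifiers. Coordinates are those deposited, and promoter stretches are RefSeq's.

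Female over male libraries were compared by the quasi-likelihood test of edgeR, two-sided, after filterByExpr and with Benjamini-Hochberg adjustment over all genes at 0.05. Standard errors were derived from that test, as the size of the log2 fold change over the square root of the F statistic. The test procedure was run on simulated counts with 200 changed genes. Those counts were drawn gene by gene, with changes larger than the fold change of any member. The simulation therefore does not show how the test handles small changes or shifts that many genes share across libraries. As alternatives, factors were RLE or upper-quartile, the filter was dropped or set to 1 CPM in 3 libraries, and the fit was DESeq2 1.42.0, limma-voom (limma 3.58.1), the letter as a replicate block, the number of embryos as a covariate and each library left out. For levels they were deposited RPKM, a pseudocount of 1, CPM and, added after the data were examined, transcript length. The 10 members and the lists were chosen with earlier results of these data known. The text names all members, the 3 highest genes and the lowest gene of each family or partner list, the closest profiles of the highest 2 members and of the most variable one, and cell type markers; other list genes named beyond this were chosen after their values were seen, and a few genes that the rule names are not reported here. Letters were not used to pair the libraries in the main test. Nothing says that libraries of 1 sex came from separate litters, so p-values measure the spread between these libraries. Floors and intervals cover counting error only. Library pairs of 1 sex differed beyond sampling noise (chi-square per degree of freedom of 20.7 or more).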

Additional observations from a re-analysis of the deposited data

How the results depend on the processing

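No member was called between sexes under any of the 14 alternatives, and 13 of them left the count of called genes between 5 and 7, with 12 genes called when no filter was applied. With the library letter as a replicate block 5 genes were called. Deviations of same-letter libraries from the mean of their sex correlated at 0.28 for A, -0.29 for B and -0.08 for C. Between libraries of different letters the correlation ran from -0.48 (female C with male A) to 0.55 (female C with male B). With 3 libraries a sex such values cannot exclude that a letter marks a shared day or litter, which the labels do not state. Of 140 member fold changes under alternatives 15 changed sign. With 1 library left out the log2 fold change, female over male, ran from -0.042 to 0.153 for Cntn1, -0.12 to 0.53 for Cntn3, -0.12 to 0.27 for Cntn4, -0.418 to 0.051 for Cntnap1, -0.037 to 0.187 for Cntnap2 and -0.13 to 0.11 for L1cam; the sign held for Cntn2, Cntn5 (0.122 to 0.762), Cntn6 (0.085 to 0.642) and Nrcam (0.141 to 0.364). L1cam also changed sign with upper-quartile factors (0.001) and limma-voom (0.002). The step from Cntnap2 to Cntn4 changed direction with CPM (-0.22) and transcript length (-1.11), and ran from -0.038 to 0.112 with 1 library left out. The cause of these sign changes was not tested. Neighbouring pairs in 1 order numbered 5 to 7 of 9 over the alternatives, 7 without female C. Depth limits Cntn3 and Cntn5 most, at 48 to 173 reads per library.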
